A study of Mus musculus with 20 samples.

Results

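Distal elements that carried H3K27ac in both fetal and adult hematopoietic stem cells (HSCs) were described from peak lists. H3K4me1 and H3K27ac peaks of both stages on chromosomes 1 to 19 were merged where they shared 1 bp, and every merged region that overlapped an H3K4me3 peak of either stage was dropped. Of the 56996 distal elements left, 3351 overlapped an H3K27ac peak of each stage, which is 5.88% of all distal elements and 30.3% of the 11068 with H3K27ac in at least 1 stage. The other acetylated elements had H3K27ac in the fetal list only (6790) or in the adult list only (927). The elements were thus chosen by their H3K27ac and H3K4me3 peaks, whose presence or absence is a description and not a finding. With only the peaks at or above the median score of each list, 1252 such elements were found.

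Chromatin immunoprecipitation followed by sequencing (ChIP-seq) had been carried out on HSCs of B6129SF1 mice. Fetal cells came from the liver at embryonic day 14.5 and adult cells from the bone marrow of animals aged 6 to 8 weeks, and the labels name no allele or treatment in either. Both were sorted on the surface phenotype Lin- CD135- Sca1+ cKit+, a gate that can also hold early multipotent progenitors, and 50000 cells went into each ChIP. The 20 samples form 10 groups of 2 replicates, with 4 histone marks and input at each stage, of which the 8 pooled peak lists of the marks were used.

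Enhancers are stretches of DNA, often far from the gene they act on, where transcription factors bind and raise transcription. H3K4me1 marks enhancers whether or not they are active, H3K27ac is added by the acetyltransferases p300 and CBP at active enhancers and promoters, H3K4me3 marks promoters, and H3K27me3 is placed by Polycomb repressive complex 2 at silenced genes. In blood stem cells, groups of neighbouring acetylated enhancers are a known feature of loci that encode regulators of cell identity.

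Each list pools 2 replicates, so no value has a replicate error, no test between stages was possible, and a difference between stages cannot be told apart from one between the libraries or the peak calling. Parentheses after a share hold its 95% exact Clopper-Pearson interval over elements, for counting error only. The lists differ in reach: on chromosomes 1 to 19 H3K27ac covered 49.6 Mb in the fetal and 32.8 Mb in the adult list, and H3K4me1 covered 57.2 Mb in 92339 peaks against 2.81 Mb in 12502 peaks. The part of this gap in the stage differences below was not tested. Elements are given by position in mm9, the build named in the submitters' processing notes. No genome or gene annotation of that build was used here, so neither sequences nor gene names are given.

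Merging can place the H3K27ac peaks of the stages at different points of 1 element, so their positions are described first. These are the peaks that chose the elements, and their overlap is no independent check of the label. Fetal and adult H3K27ac overlapped each other directly at 3339 of the 3351 elements, or 99.6% (99.4 to 99.8), and shared at least 500 bp at 98.1% (97.6 to 98.6). At the other 12, the stages' peaks lay apart within 1 merged region. A single peak per stage made up 2966 elements, or 88.5% (87.4 to 89.6). In 227 elements 1 fetal peak stood against 2 or more adult peaks, in 102 the reverse held, and 56 had 2 or more of each. These elements held 3527 of the 23368 fetal H3K27ac peaks and 3681 of the 17834 adult ones.

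Acetylation spread over more DNA in the fetal list. The median length covered by H3K27ac per element was 2300 bp in the fetal list (quartiles 1668.5 and 3182) and 1509 bp in the adult list (quartiles 1058 and 2138). The median fetal to adult ratio per element was 1.45, with quartiles of 1.10 and 1.98 and a range from 0.248 to 11.3. Summed over all elements, fetal H3K27ac covered 8.996 Mb and adult H3K27ac 6.03 Mb, of which 5.52 Mb was common to both. All H3K27ac peaks on chromosomes 1 to 19 covered 49.6 and 32.8 Mb, so a longer fetal total was not particular to these elements.

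The fetal stretch was the longer one at 2742 elements, or 81.8% (80.5 to 83.1). The same count was read against regions built in the same way that did overlap H3K4me3 and were acetylated in both stages, of which 73.1% had the longer stretch in the fetal list. A fetal stretch at least 2 times the adult one was found at 814 distal elements, or 24.3% (22.8 to 25.8), against 3.88% of the H3K4me3-overlapping regions. An adult stretch at least 2 times the fetal one was found at 39 distal elements, or 1.16% (0.829 to 1.59), against 0.448%. The median ratio at the 11392 H3K4me3-overlapping regions was 1.13, with quartiles of 0.988 and 1.31, so their lengths lay closer together in both directions. Across elements, fetal and adult lengths had a Spearman's rho of 0.504 at distal elements and 0.793 at the H3K4me3-overlapping regions. Elements within a pair of lists are not independent replicates.

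**Figure D1:**
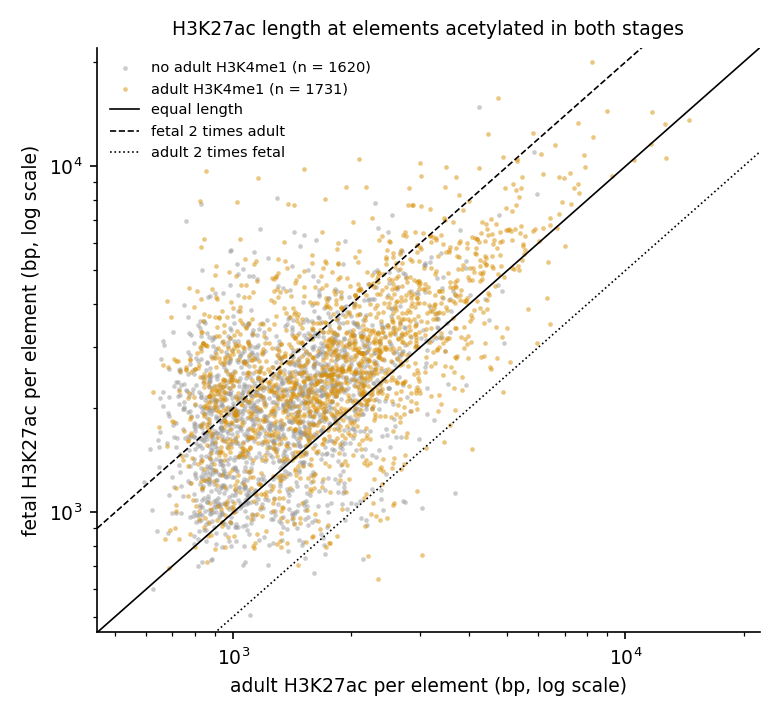
H3K27ac length per element in the adult list (x axis, bp, log scale) and the fetal list (y axis, bp, log scale), 1 point per element, coloured by whether adult H3K4me1 was present. Most points lie above the line of equal length, and 814 lie on or above the line where the fetal length is 2 times the adult one.

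The longer fetal stretch mostly enclosed the adult one. Among the 2966 elements with 1 peak per stage, the adult peak lay wholly within the fetal peak at 1950, or 65.7% (64.0 to 67.5). The fetal peak lay within the adult peak at 204, and the peaks were staggered at 800. Where the adult peak was enclosed, the fetal peak reached past it by a median of 261.5 bp on the shorter side and 715 bp on the longer side. Midpoints of fetal and adult peaks were a median of 209 bp apart (quartiles 93 and 386.875), and 94 pairs were over 1 kb apart. At the midpoint of the fetal peak 87.6% of elements were covered by adult H3K27ac, and at 1 kb to either side 34.1% and 34.8% were, against 62.0% and 62.5% for fetal H3K27ac.

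**Figure D2:**
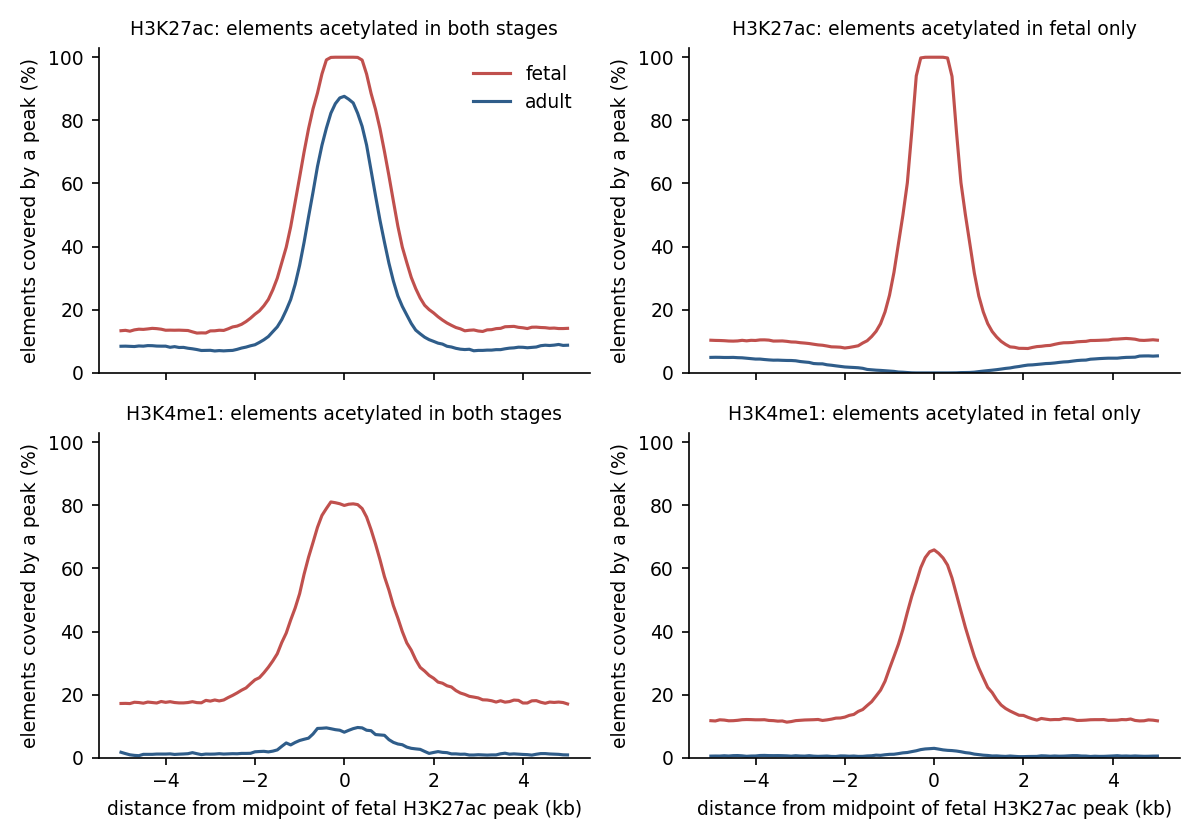
Share of elements covered by a peak (y axis, percent) by distance from the midpoint of the longest fetal H3K27ac peak (x axis, kb), for H3K27ac (top) and H3K4me1 (bottom), in elements acetylated in both stages (left) and in the fetal list only (right). Fetal H3K27ac is at 100% at the midpoint by construction, fetal H3K4me1 reaches 79.9% there on the left and 65.9% on the right, and adult H3K4me1 stays under 10% in all panels.

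Scores of the authors' peak caller were used only as ranks within a list. The best fetal peak of an element stood at a median percentile of 53.6 in the fetal H3K27ac list, and the best adult peak at 28.2 in the adult list. The elements acetylated in a single stage ranked lower, at a median of 23.7 for fetal-only elements in the fetal list and 12.9 for adult-only elements in the adult list. These ranks come from the lists that chose the elements and are a description.

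The 10 elements with the most H3K27ac shared between stages lay in clusters of 2 or more such elements, as did 31.1% of all elements. Chromosomes 14 and 17, with 112 and 157 of the 3351 elements, held 6 of these 10. The first, on chromosome 17 from 84380399 to 84393995, had 13248 bp of fetal and 12592 bp of adult H3K27ac, with 12491 bp in common. A second pair on the same chromosome, from 84539199 to 84550267 and from 84554850 to 84567306, had 10402 and 11587 bp in the fetal list against 10504 and 11591 bp in the adult list. Fetal and adult lengths at these 3 lay close together. On chromosome 9 from 65387722 to 65403151, 1 fetal peak of 14333 bp stood over 5 adult peaks of 11670 bp in sum. Fetal H3K27ac was longer at 6 of these 10 elements, or 60% (26.2 to 87.8), against 81.8% of all elements. Adult H3K4me1 was present at all 10, against 51.7%. None of them overlapped H3K27me3 at either stage, but only 0.507% of all elements did, so nothing is read from this. The 10 were in effect chosen for long H3K27ac, and adult H3K4me1 was more often present at elements with longer H3K27ac, as given below. Shared length cannot exceed the length in either stage, so the choice also favoured elements long in both lists. Nothing is thus read from the close lengths or from the 6 of 10.

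Elements with the largest shift toward the fetal stage were chosen among those with at least 1 kb of H3K27ac in each list. On chromosome 11 from 24138349 to 24147591, 9243 bp of fetal H3K27ac stood against 1159 bp in the adult list, a ratio of 7.97. Next came an element on chromosome 2 from 18857105 to 18866829, with 7904 and 1025 bp. Another element of the same cluster, from 18871517 to 18881643, had 9974 and 7893 bp, so neighbours could differ widely. The other 3 lay on chromosomes 18, 5 and 6, with ratios of 6.48, 6.29 and 5.94. Toward the adult stage the shifts were smaller. The lowest ratio, 0.308, was on chromosome 6 from 91437954 to 91441638, with 1134 bp of fetal and 3685 bp of adult H3K27ac, and the next was 0.340 on chromosome 3 from 108812751 to 108815778, with 1031 and 3028 bp. The remaining 3 had ratios between 0.375 and 0.392 on chromosomes 15, 14 and 7.

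H3K4me1 was not required by the choice of elements. With all peaks used, it was called at nearly every element in the fetal list and at about every other in the adult list. Fetal H3K4me1 was found at 3245 elements, or 96.8% (96.2 to 97.4), against 95.7% of all distal elements. Adult H3K4me1 was found at 1731, or 51.7% (49.9 to 53.4), against 10.9% of all distal elements. With equal numbers of top-scoring peaks per mark in both stages, the fetal and adult shares lay closer together, at 68.5% and 53.5%. Of the 3245 elements with fetal H3K4me1, 1724 also had it in the adult list, a kept share of 53.1% (51.4 to 54.9) where the share over all distal elements was 9.20%. The mark was called in the fetal list alone at 1521 elements, in the adult list alone at 7, and in neither at 99. The 7 with adult H3K4me1 alone had medians of 1365 bp of fetal and 1752 bp of adult H3K27ac and a median ratio of 0.709. All distal elements include those described and are mostly elements that had H3K4me1 and no H3K27ac, so the shares over them are set by how the elements were built.

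The other classes of acetylated regions had lower kept shares. The kept share was 18.7% (17.7 to 19.7) at elements acetylated in the fetal list only and 34.6% (31.0 to 38.3) at those acetylated in the adult list only. With equal numbers of top-scoring peaks per mark in both stages, the shares were 34.9% and 54.6%, against 65.4% at elements acetylated in both stages. Regions that overlapped H3K4me3 and were acetylated in both stages had 19.4% (18.7 to 20.2). With all peaks the intervals did not overlap that of the elements acetylated in both stages, but no test was made, since elements of 1 list are not replicates. Fetal H3K4me1 itself was found at 85.9% (85.1 to 86.8) of fetal-only and 71.7% (68.7 to 74.6) of adult-only acetylated elements.

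Where present, adult H3K4me1 was a small part of the fetal stretch. Its median length was 337 bp per element (quartiles 198 and 607.5), against 1999 bp (quartiles 1313 and 2993) for fetal H3K4me1. At the 1724 elements with both, the adult length had a median of 14.3% of the fetal length. Fetal H3K4me1 covered 74.5% of the summed length of the elements and adult H3K4me1 7.89%. Of fetal H3K4me1 base pairs 85.1% lay on fetal H3K27ac, which itself covered 86.7% of the summed length. Of adult H3K4me1 base pairs 76.8% lay on adult H3K27ac, which covered 58.2%. Adult H3K4me1 met an adult H3K27ac peak at 1538 elements, which is 45.9% (44.2 to 47.6) of all. Around the fetal midpoint, adult H3K4me1 covered 8.12% of elements at the midpoint itself, 9.37% and 8.74% at 500 bp to either side, and 1.76% and 0.925% at 5 kb.

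Keeping of H3K4me1 went with the length of both marks. Among elements with fetal H3K4me1, the kept share was 24.8% (21.8 to 27.9) in the quartile with the shortest fetal H3K4me1, then 42.9% and 61.2%, and 83.7% (81.0 to 86.2) in the quartile with the longest. By adult H3K27ac length it was 39.0% (35.7 to 42.5) in the shortest and 76.6% (73.5 to 79.4) in the longest quartile. By the fetal to adult ratio of H3K27ac it showed little order, at 55.8%, 54.6%, 49.0% and 53.1%. Elements that kept H3K4me1 had medians of 2614.5 bp of fetal and 1772 bp of adult H3K27ac, those with fetal H3K4me1 only 2081 and 1325 bp, and the 99 without H3K4me1 1441 and 1132 bp. A wider region also offers more room for a peak, and the part of this in the kept shares was not tested.

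Fetal-only acetylated elements were shorter in both marks, so the kept share was also read within common quartiles over the 2 classes. In the lowest quartile of fetal H3K4me1 length (170 to 847 bp) it was 18.4% (14.6 to 22.8) at elements acetylated in both stages and 6.54% (5.47 to 7.74) at fetal-only elements. In the highest quartile (2183 to 16280 bp) it was 74.4% (72.1 to 76.7) and 44.4% (41.0 to 47.8). Within each of the 4 quartiles of either mark, the share was higher at the elements acetylated in both stages, and the intervals did not overlap. These intervals hold counting error only, and no test was made, since elements of the same list are not replicates. The quartiles are wide, and neither lengths inside them nor the widths of the elements were matched. The part of length in the difference between the classes was thus not tested.

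**Figure D3:**
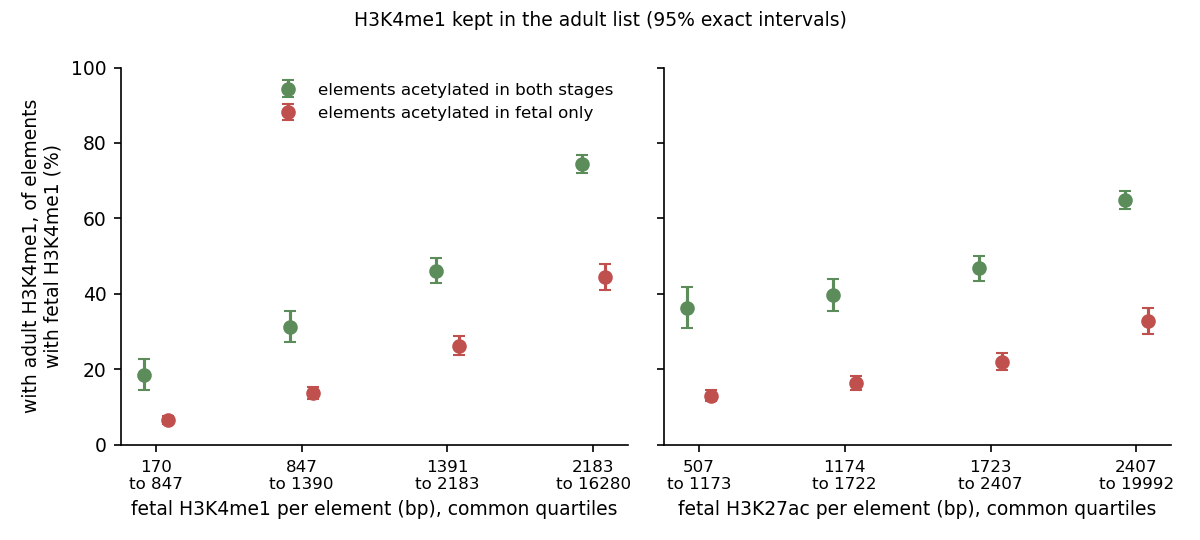
Share of elements with fetal H3K4me1 that also had adult H3K4me1 (y axis, percent, with 95% exact intervals), in common quartiles of fetal H3K4me1 length (left) and fetal H3K27ac length (right), for elements acetylated in both stages and in the fetal list only. The share rises with length in both classes, from 18.4% to 74.4% and from 6.54% to 44.4% in the left panel.

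The element with the most adult H3K4me1 was on chromosome 9 from 32306337 to 32319681, where 16 adult peaks covered 4517 bp and 2 fetal peaks 13239 bp. Its H3K27ac went from 12366 bp in the fetal to 4464 bp in the adult list. The acetylated stretch was longer in the fetal list at 81.8% of all elements, so this direction was the common one. Next was the widest element of all, on chromosome 4 from 134622168 to 134642938 (20771 bp), with 15671 bp of fetal and 3202 bp of adult H3K4me1 and with 19992 and 8237 bp of H3K27ac. The third, on chromosome 2 from 180165589 to 180182066, had 16264 and 3125 bp of H3K4me1. The next pair were among the elements with most shared H3K27ac, on chromosome 14 from 26329981 to 26345641 and on chromosome 9 from 65387722 to 65403151, with 3065 and 2700 bp in the adult list.

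H3K27me3 was rare. It overlapped 17 of the 3351 elements in the fetal list, or 0.507% (0.296 to 0.811), and 3 in the adult list, or 0.0895% (0.0185 to 0.261), against 5.68% and 3.73% of all distal elements. The 3 adult cases were all among the 17 fetal ones. Fetal-only acetylated elements had 0.928% (0.714 to 1.19) and 0.309% (0.192 to 0.472). In 15 of the 17 the fetal H3K27me3 peak overlapped fetal H3K27ac, which covered 86.7% of the summed length of all the elements, so nothing is read from this count. The 17 elements had a median of 1182 bp of fetal H3K27me3 and lay a median of 5808 bp from H3K4me3. With peaks at or above the median score only, the shares were 2.40% and 1.12%. Only H3K4me3 peaks that passed this filter excluded a region there, and the part of this in the shares was not tested. The longest stretch, 2480 bp of fetal H3K27me3 and none in the adult list, was on chromosome 17 from 5974718 to 5977686, with 2491 and 1668 bp of H3K27ac. On chromosome 4 from 125976474 to 125979038, 2311 bp of fetal and 1191 bp of adult H3K27me3 lay beside 866 and 775 bp of H3K27ac that did not overlap between stages. The third, on chromosome 11 from 85525610 to 85528871, had 2280 and 152 bp of H3K27me3.

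Elements acetylated in both stages were often neighbours. The median gap to the nearest other such element was 37273 bp (quartiles 8416 and 151713). Elements were joined into clusters across gaps up to midway between 0 and 25 kb, the customary stitching distance for enhancers. By this distance 1042 elements, or 31.1% (29.5 to 32.7), lay in 445 clusters of 2 or more. The clusters comprised 340 of 2 elements, 74 of 3, 23 of 4 and 8 of 5 or more. The same distance put 34.0% (32.9 to 35.1) of the 6790 fetal-only and 16.8% (14.5 to 19.4) of the 927 adult-only elements in clusters of their own class, but these shares also move with the number of elements in a class. A fetal-only acetylated element lay within the stitching distance of 1099 of the 3351 elements, or 32.8%, and an adult-only one within it of 316, or 9.43%. The 2 classes differ in number, and no share over other distal elements is given, so no preference for either is read from these counts. The median span of a cluster was 13008 bp, and 30 of the 445 held an H3K4me3 peak between their ends. With peaks at or above the median score only, 16.5% of elements were clustered and the median gap was 140082 bp, and with a stitching distance of 5 kb 18.9% were clustered.

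Clustered elements were slightly longer than single ones, with medians of 2395.5 against 2256 bp of fetal and 1656.5 against 1444 bp of adult H3K27ac. Their kept share of H3K4me1 was 59.0% (55.9 to 62.1) against 50.4% (48.3 to 52.5). Across the 597 pairs of consecutive elements within the stitching distance, the fetal to adult ratios of the neighbours had a Spearman's rho of 0.234, and across 1795 consecutive pairs over 100 kb apart 0.0606. Neighbours were on the same side of equal length in 72.0% of close and 72.2% of far pairs, and had the same adult H3K4me1 state in 53.4% and 51.3%. The ratios of close neighbours were thus weakly related and more so than those of far pairs, while the shares with the same side or the same H3K4me1 state were alike at both distances. The pairs share their lists, and no test was made.

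The cluster with the most elements was on chromosome 14 from 26282071 to 26368906 and held 8 over 86836 bp. Fetal H3K27ac covered 35418 bp and adult H3K27ac 42564 bp, and the adult stretch was the longer one at 7 of the 8 elements, against 18.1% of all elements. The 2 largest had 13573 and 10591 bp of fetal against 14511 and 12714 bp of adult H3K27ac. H3K4me1 was present at all 8 in both lists, from 338 to 3065 bp per element in the adult list. No H3K4me3 or H3K27me3 peak of either stage lay between its ends, but its first element began 85 bp from an adult H3K4me3 peak, and 2 adult-only acetylated elements lay inside it.

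**Figure D4:**
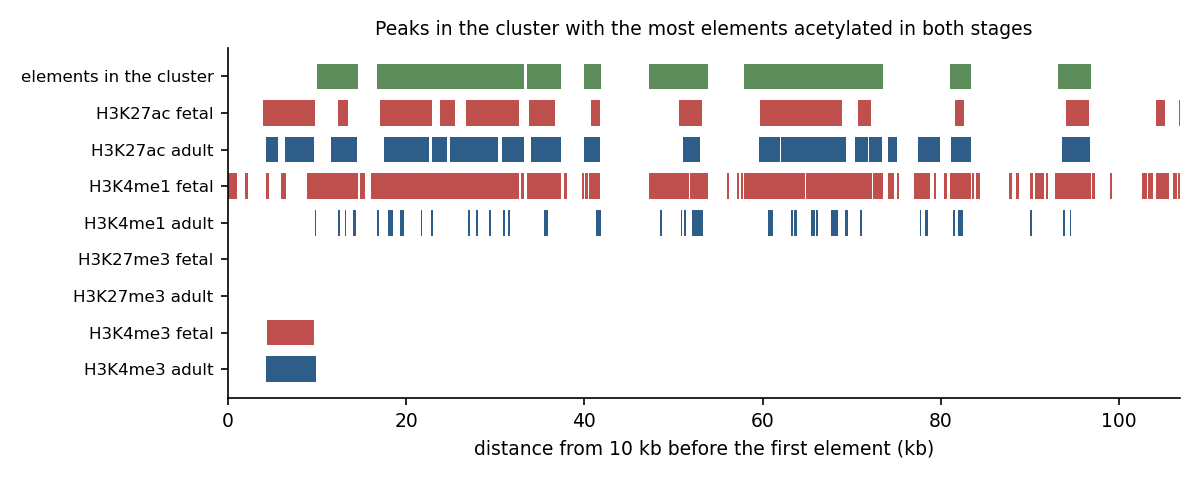
Peaks of 4 marks in the fetal and adult lists across the cluster on chromosome 14, by distance in kb from a point 10 kb before its first element (x axis), with 1 row per mark and stage and the 8 elements on top. H3K27ac and fetal H3K4me1 run along the cluster at both ends and in between, adult H3K4me1 appears as narrow peaks, and H3K4me3 lies before the first element.

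The next clusters, by number of elements, differed in direction, and summed lengths and counts of elements did not always go the same way. On chromosome 8 from 119776678 to 119828664, 7 elements had 17396 bp of fetal and 18233 bp of adult H3K27ac. The fetal stretch was nevertheless the longer one at 5 of these 7. On chromosome 19 from 46544775 to 46599814, 7 elements had 14886 and 8859 bp, a ratio of 1.68, with the fetal stretch longer at 5. On chromosome 17 from 87697397 to 87745613, 6 elements had 12885 and 12543 bp, but the adult stretch was longer at 4. The last of these, on chromosome 16 from 11438437 to 11469409, lay 113936 bp from the nearest H3K4me3 peak and had 5 elements with 18712 and 12498 bp. Its fetal stretch was longer at all 5. Between the ends of the cluster on chromosome 8 lay 1 fetal and 1 adult H3K4me3 peak. The cluster on chromosome 19 held 2 fetal and 1 adult H3K4me3 peaks and 1 fetal H3K27me3 peak. That on chromosome 17 held 1 adult H3K4me3 peak.

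Across chromosomes, elements acetylated in both stages made up between 24.1% (chromosome 1) and 36.5% (chromosome 11) of the acetylated distal elements. Median ratios ran from 1.28 on chromosome 12 to 1.62 on chromosome 16, all above 1, and adult H3K4me1 was present at 43.3% (chromosome 3) to 60.4% (chromosome 8).

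The distance to H3K4me3, of which the choice of elements fixed only that there was no overlap, was spread over several orders of magnitude. The nearest H3K4me3 peak of either stage was a median of 17629 bp away (quartiles 6845 and 42428.5), with 1119 elements, or 33.4% (31.8 to 35.02), within 10 kb, against 36.3% of all distal elements. Fetal-only acetylated elements lay farther out, at a median of 24823 bp and with 27% (25.9 to 28.1) within 10 kb. Adult-only ones lay nearer, at 15280 bp and 41.0% (37.8 to 44.2). No test of these differences was made. With peaks at or above the median score only, the medians were 27910 bp for elements acetylated in both stages, 39308 bp for fetal-only and 27435 bp for adult-only ones, so the first and last lay close together. This filter also removed H3K4me3 peaks. Its distances were thus taken to fewer peaks, and a region over a removed H3K4me3 peak could count as distal. Distances to the stage's own H3K4me3 list were 19022 bp in the fetal and 19348 bp in the adult list, and at 2841 elements they were within 1 kb of each other.

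**Figure D5:**
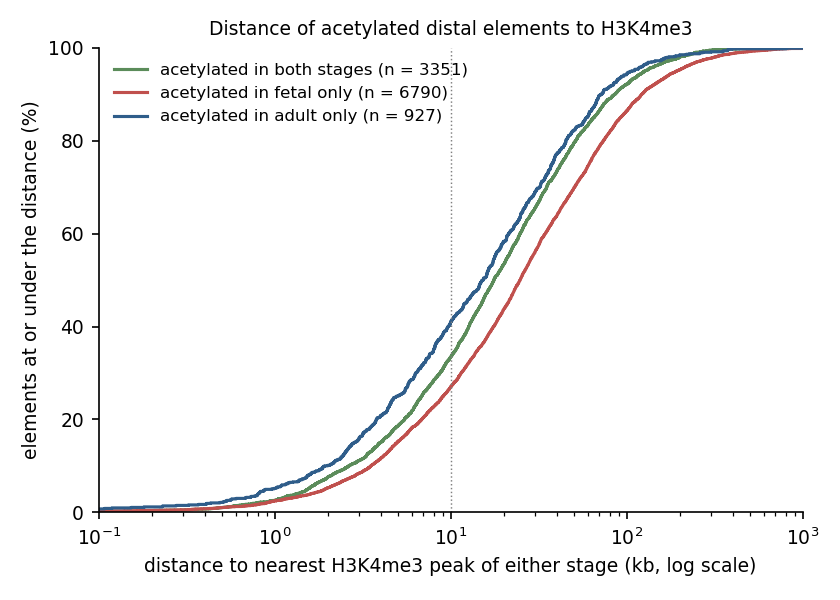
Cumulative share of elements (y axis, percent) by distance to the nearest H3K4me3 peak of either stage (x axis, kb, log scale), for the 3 classes of acetylated distal elements; the dotted line is at 10 kb. The curve for elements acetylated in both stages lies between those of the adult-only and fetal-only elements, at 33.4% within 10 kb.

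The fetal to adult ratio of acetylated length was higher farther from H3K4me3. The median ratio was 1.35 for the 252 elements within 2 kb and also for the 867 between 2 and 10 kb, 1.46 for the 1542 between 10 and 50 kb, and 1.63 for the 690 beyond 50 kb. Over the same bins the fetal stretch was the longer one at 76.6% (70.9 to 81.7), 77.9% (74.9 to 80.6), 83.3% (81.3 to 85.1) and 85.5% (82.7 to 88.1). The kept share of H3K4me1 went from 56.9% (50.4 to 63.1) to 51.2% (47.3 to 55.1), and the intervals overlapped. The 3 farthest elements lay on chromosome 8 from 17412203 to 17414163, chromosome 13 from 39863574 to 39866254 and chromosome 14 from 23577568 to 23580953, at 1180364, 810367 and 737377 bp. All 3 had single peaks of 775 to 1602 bp in the adult list. At the near end, elements on chromosome 14 from 55099123 to 55101464, chromosome 3 from 129237939 to 129239974 and chromosome 1 from 136196538 to 136201431 lay 12, 22 and 29 bp from H3K4me3.

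The nearest H3K4me3 region, with the lists of both stages merged, was acetylated in both stages for 2714 elements, or 81.0% (79.6 to 82.3). The share was 72.2% (71.1 to 73.3) for fetal-only and 80.0% (77.3 to 82.6) for adult-only acetylated elements, and 70.8% (70.4 to 71.2) for elements with H3K4me1 and no H3K27ac. Of all 17586 merged H3K4me3 regions, each counted once, 65.8% were acetylated in both stages. The nearest region overlapped fetal H3K27me3 for 11.7% (10.6 to 12.8) and adult H3K27me3 for 5.43% (4.69 to 6.25) of elements. These shares were 16.95% and 9.97% for fetal-only, 14.7% and 4.96% for adult-only and 20.3% and 12.8% for elements with H3K4me1 and no H3K27ac. Of all merged H3K4me3 regions, each counted once, 22.5% and 14.6% overlapped fetal and adult H3K27me3. The elements shared 2383 such regions, since 639 were nearest to 2 or more elements and 1 was nearest to 9. The nearest region need not be the promoter an enhancer acts on. Where it was acetylated in the fetal list only, the 183 elements had a median ratio of 1.71 (quartiles 1.28 and 2.32), and where in the adult list only, the 145 elements had 1.31 (quartiles 1.04 and 1.82).

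Elements at the extremes of the measures, and regions just outside the limits of the definition, are given last. The shortest adult H3K27ac stretch was 591 bp, on chromosome 3 from 108824653 to 108826146, and the shortest fetal one 507 bp, on chromosome 4 from 62294657 to 62295759. Elements hold whole H3K27ac peaks, the shortest of which were 348 bp in the adult and 383 bp in the fetal list. Their lengths could thus not come near the 1 bp of overlap required, and nothing is read from this margin. Among elements whose stages did overlap, the least was 8 bp, on chromosome 14 from 15345688 to 15348268, though such overlap was not required. Just outside, a fetal-only element on chromosome 10 from 19334580 to 19335497 lay 16 bp from adult H3K27ac, and an adult-only one on chromosome 5 from 108393734 to 108395020 lay 12 bp from fetal H3K27ac. In all, 271 of the 6790 fetal-only elements, or 3.99% (3.54 to 4.48), had the other stage's H3K27ac within 1 kb. The same held for 110 of the 927 adult-only elements, or 11.9% (9.85 to 14.1). A region on chromosome 3 from 151106146 to 151108292, with 2046 bp of fetal and 1803 bp of adult H3K27ac, was left out for 3 bp of H3K4me3.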

How the data were processed

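Peak lists of 4 histone marks at 2 stages were used as the authors deposited them, 1 list per mark and stage, titled as combined. Each gives chromosome, start, end, name and a score. In the deposited lists the names of peaks start with MACS. Reads were aligned with Bowtie2 2.2.2 and the build is mm9, per the submitters' processing notes. The caller's version, settings and control, and the read depth, are not given in the sources used here. The deposited score is the authors' own value, at least 50 in each list, and served only for ranks and filters inside each list. Inputs and single replicates were not analysed here.

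Merging, overlap (1 bp), covered length and edge-to-edge distance were computed with numpy 2.4.6 and pandas 2.3.3 in Python 3.11.15, exact intervals with scipy 1.17.1 and plots with matplotlib 3.10.9. Coordinates are 1-based. Peaks on X, Y and unplaced contigs were left out. On simulated elements, 200 of 200 planted in each of 3 classes were recovered.

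Elements named are the 10 with most H3K27ac shared between stages and the 5 highest and 5 lowest ratios (at least 1 kb per stage). Further ones are the 5 clusters with most elements, the 3 nearest to and 3 farthest from H3K4me3 and the 5 with most adult H3K4me1. The rest are the 3 with most H3K27me3, those with the shortest H3K27ac or least overlap, and regions just outside a limit. Of each set, some are given by range. The planned gene lists were not used, since no annotation of the build was used. The elements and measures were chosen with earlier results of these data known. The alternatives are given in the closing section.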

Additional observations from a re-analysis of the deposited data

Results flagged for a closer look

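On the X chromosome, which the definition of the elements leaves out, 18 of 81 acetylated distal elements had H3K27ac in both stages, or 22.2%, against 30.3% on chromosomes 1 to 19. These 18 had a median fetal to adult ratio of 1.85, with fetal H3K4me1 at 12 and adult H3K4me1 at 2. They are given because these peaks lie outside the comparisons. Elements acetylated in both stages were to be anticipated on any chromosome with acetylated elements, and no test against the other chromosomes was made.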

How the results depend on the processing

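Alternatives were run for 14 summary values of the elements and, after seeing the data, for 2 shares of the fetal-only and adult-only classes. None of these reversed, and 58 of 112 recomputed values stayed within the interval of the reported one or, for the number of elements, within 1.5 times it. No paired analysis was possible because the replicates of a mark were pooled before peaks were listed, and no replicate was left out for the same reason. Nearest genes and gene lists were not run, since no annotation of the build was used. Read depth is unknown, and an element without a peak is one with no call, not one shown to lack the mark. Splits by length, distance, cluster or nearest H3K4me3 region, and the values at H3K4me3-overlapping regions, were not recomputed. The cause of the changes below was not tested.

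With peaks at or above the median score of each list, 1252 elements met the definition, 27.6% of those acetylated. The filter also applied to H3K4me3, so fewer peaks excluded regions and distances were taken to fewer peaks. Direct overlap of H3K27ac was 99.9%, the median ratio 1.27, fetal H3K4me1 93.2%, adult H3K4me1 45.1% and the kept share 48.4%. Fetal and adult H3K27me3 were at 2.40% and 1.12%, 16.5% were clustered, the median gap was 140082 bp, the median distance to H3K4me3 27910 bp and the share within 10 kb 22.8%. With equal numbers of top-scoring peaks per mark, 37.5% of acetylated elements were acetylated in both stages, the ratio was 1.52, the fetal stretch was longer at 87.1%, fetal and adult H3K4me1 were at 68.5% and 53.5%, and the kept share was 65.4%. Adult H3K27me3 was then at 0%, 28.8% were clustered and the gap was 45105.5 bp. With peaks merged within 1 kb, the values were 31.7% acetylated in both, 98.6% direct overlap, a ratio of 1.49, 53.7% with adult H3K4me1, 55.2% kept, 26.0% clustered, a gap of 51211 bp, a distance of 20311 bp and 28.7% within 10 kb. Dropping regions within 2 kb of H3K4me3 gave a distance of 20318 bp and 27.98% within 10 kb. Merging H3K27ac alone gave 100% direct overlap, and asking for 500 bp gave 98.1%. Stitching at 5 and 25 kb put 18.9% and 42.3% in clusters. Counting H3K4me1 only on the stage's own H3K27ac gave 45.9% adult and 47.2% kept. Limits of 5 and 50 kb in place of 10 kb held 18.6% and 79.4%.

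The kept share of the other classes was recomputed with median-score peaks, equal numbers of peaks, peaks merged within 1 kb, the 2 kb exclusion and H3K27ac alone. At fetal-only acetylated elements it was 27.4%, 34.9%, 19.8%, 18.3% and 17.4%, and at adult-only ones 31.6%, 54.6%, 38.2%, 34.6% and 30.5%. Each was below the 48.4%, 65.4%, 55.2%, 52.8% and 53.0% of elements acetylated in both stages under the same setting.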
